A study of Mus musculus with 2 samples.

Results

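The SLC25 mitochondrial carriers were followed in single cells of the adult hippocampus after loss of Opa1. Members were taken as all gene symbols that begin with Slc25a and go on with a number, and 47 of the 22625 features in the count tables matched. Of these, 42 had at least 20 unique molecular identifiers (UMIs, each a tagged mRNA molecule) over both libraries and were kept. The other 5 were Slc25a48 with 8 UMIs, Slc25a31 with 7, Slc25a41 with 3, Slc25a2 with 1 and Slc25a54 with 0. No difference between groups entered this rule, although earlier results of these data were known when it was set.

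The data are 2 libraries of the 10x Genomics 3′ v2 assay, 1 for each genotype. CT mice, labelled WT, carried Nestin-CreERT2 and the ROSA26YFP reporter without floxed Opa1, and Opa1 cKO mice carried the same alleles with Opa1-Flox, although the strain field of the labels is identical for both. Mice of both genotypes received tamoxifen (TAM) at 8 weeks of age and were sampled at 12 weeks, and live YFP+ cells sorted from hippocampi were pooled by genotype. Cre under the nestin promoter acts in cells that express nestin at the time of TAM, so that YFP marks those cells and their progeny, and a YFP+ cell need not have lost both Opa1 alleles.

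Carriers of the SLC25 family form the main route by which small molecules cross the inner mitochondrial membrane, which is otherwise closed to charged metabolites. They exchange ADP for ATP, take up phosphate, and move nucleotides, cofactors, carboxylic acids, amino acids, iron and glutathione. All are made from nuclear genes and inserted into a membrane after translation in the cytosol. Not all members sit in the inner membrane, since Slc25a17 is peroxisomal and Slc25a46 lies in the outer mitochondrial membrane. OPA1 is a GTPase of the inner mitochondrial membrane, needed for its fusion and for the shape of its folds, or cristae.

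Depth was 10799936 UMIs over 4634 CT barcodes and 18662032 UMIs over 6475 Opa1 cKO barcodes. After the filters on genes, mitochondrial share and YFP, 1790 CT and 3764 Opa1 cKO cells were left, with medians of 2555 and 3008 UMIs per cell. The libraries share 36 barcodes, 9 of them among kept cells, and the summed ratio given below was the same to 2 decimals without them. Clusters were named from marker genes, hence the ending -like. The neural stem cell (NSC) pool-like class held 1378 CT and 2591 Opa1 cKO cells in 2 clusters. No list of astrocyte markers was among those used for naming. Astrocytes could therefore not be named apart from stem cells, and values of this class are not those of stem cells alone. All 10 NSC pool markers, among them Aldoc, Gfap and Sox2, were detected in both libraries, but so they were in every other class. Of these 10 markers, 7 in the first cluster and 8 in the second were over 2-fold above the median of the other clusters. The first cluster, led by Cxcl14, Slc7a10 and Hsd11b1, had 1375 CT and 791 Opa1 cKO cells, and the second, led by Nupr1, Acsbg1 and Gdf15, had 3 CT and 1800 Opa1 cKO cells. Different clusters thus held most of the class in the 2 genotypes, and with 1 library each a cluster of 1 library cannot be told apart from that library.

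Opa1 itself was read from 70 UMIs of CT and 68 UMIs of Opa1 cKO cells in the NSC pool-like class. This is 18.5 CPM (counts per 1000000 UMIs of the class) against 7.99 CPM, a log2 ratio of −1.21 (−1.72 to −0.71). The assay reads the 3′ end of a transcript and also counts mRNA that lacks deleted exons. Here and below, a bracket after a value is its 95% interval of counting error only. PCR, cell capture and differences between mice are outside it, as is variation between cells for values from summed UMIs. No test between genotypes was possible with 1 library each.

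Summed over the 42 members, carriers made up 4015 CPM (15173 UMIs) of the NSC pool-like class in CT against 5151 CPM (43844 UMIs) in Opa1 cKO, a summed log2 ratio of 0.36 (0.33 to 0.39). Without the abundant Slc25a3, Slc25a4 and Slc25a5 the other 39 members summed to 1579 and 1711 CPM, a log2 ratio of 0.12 (0.07 to 0.16). A gene was counted as higher or lower when its CPM differed by at least 1.5-fold (0.58 on the log2 scale) and it had at least 50 UMIs over both sides, which 36 members reached. Of these, 7 were higher and 2 lower in Opa1 cKO, while 12.9% of all 10100 genes with this depth were higher and 11.6% lower. The higher ones were Slc25a33, Slc25a17, Slc25a5, Slc25a37, Slc25a39, Slc25a29 and Slc25a14, and the lower ones Slc25a42 and Slc25a36. The median log2 ratio was 0.16 over the counted members, 0.04 over all genes of that depth and 0.14 over genes with at least 300 UMIs. Relative to that last shift, 2 members were higher (Slc25a17 and Slc25a33) and 6 lower (Slc25a25, Slc25a36, Slc25a42, Slc25a1, Slc25a10 and Slc25a47), against 7.82% and 18.3% of all genes read the same way. With mitochondrial mRNAs left out of the total the counts were 5 and 2, against 10.8% and 13.8% of all genes. The plot of log2 ratios by role shows 35 of the counted members.

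**Figure D1:**
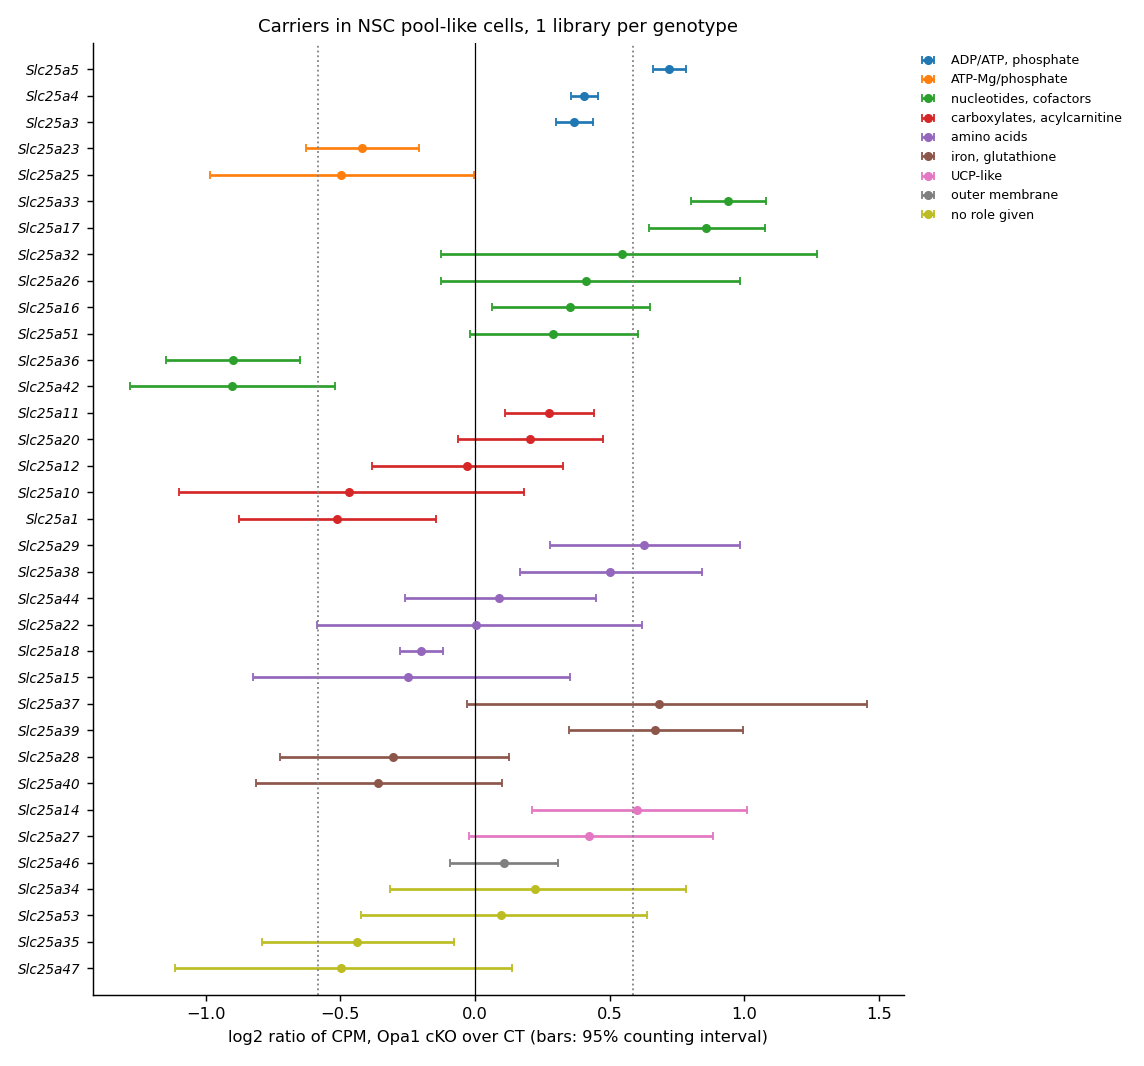
Log2 ratio of CPM, Opa1 cKO over CT, for 35 of the 36 carriers that reached 50 UMIs in the NSC pool-like class, with 95% counting intervals, coloured by transported substrate. Dotted lines mark 1.5-fold. Slc25a33 (0.94) and Slc25a17 (0.86) lie farthest to the right and Slc25a36 and Slc25a42 (both −0.90) farthest to the left, all 4 within the group of nucleotide and cofactor carriers.

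The carriers of ADP, ATP and phosphate serve oxidative phosphorylation and were the 3 most abundant members in both libraries. Slc25a4 encodes the ADP/ATP carrier ANT1 and Slc25a5 its close paralogue ANT2, and Slc25a3 encodes the phosphate carrier. Slc25a5 (chromosome X, 36795651 to 36798807, plus strand, mm10) had 715 CPM in CT against 1179.6 CPM in Opa1 cKO and a log2 ratio of 0.72 (0.66 to 0.78). Slc25a4 (chromosome 8, 46206797 to 46211284, minus strand) had 1119 and 1482 CPM, a ratio of 0.41 (0.36 to 0.46), and Slc25a3 (chromosome 10, 91116574 to 91124059, minus strand) had 602 and 778 CPM, a ratio of 0.37 (0.30 to 0.44). All 3 were at a higher level in Opa1 cKO cells, and of them Slc25a5 alone passed 1.5-fold, which it just missed relative to the median of genes with at least 300 UMIs. The share of Slc25a5 in the UMIs of the ADP/ATP pair does not depend on the total and was 39.0% (37.8 to 40.2) in CT and 44.3% (43.7 to 45.0) in Opa1 cKO. Slc25a4 and Slc25a5 are alike in sequence, and how the counting divided reads that match both is not known here.

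The calcium-regulated carriers exchange ATP-Mg for phosphate and set the adenine nucleotide content of the matrix. Slc25a23 had 78.9 CPM in CT against 59.0 CPM in Opa1 cKO and a log2 ratio of −0.42 (−0.63 to −0.21). Slc25a25 had 59 and 94 UMIs and a ratio of −0.50 (−0.98 to 0.00). Slc25a24 had 5 UMIs in the class and was not counted. Both counted members were at a lower level in Opa1 cKO, within 1.5-fold.

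The carriers of nucleotides and cofactors held the highest and the lowest ratios of the family. Slc25a33 and Slc25a36 both encode carriers of pyrimidine nucleotides, which mitochondria need to make their own DNA and RNA. Slc25a33 (chromosome 4, 149744036 to 149774277, minus strand) had 530 UMIs or 140.3 CPM in CT against 2291 UMIs or 269 CPM in Opa1 cKO and a log2 ratio of 0.94 (0.80 to 1.08). Slc25a36 (chromosome 9, 97074961 to 97111157, minus strand) had 247 UMIs or 65.4 CPM in CT against 298 UMIs or 35.0 CPM in Opa1 cKO and a ratio of −0.90 (−1.15 to −0.65). The paralogues thus differed in opposite directions. Slc25a33 gave 68.2% (64.8 to 71.5) of the UMIs of this pair in CT and 88.5% (87.2 to 89.7) in Opa1 cKO, a share that no choice of total affects.

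Slc25a17 encodes a carrier of the peroxisomal membrane for coenzyme A, FAD and NAD, and Slc25a42 the mitochondrial carrier that brings in coenzyme A. Slc25a17 (chromosome 15, 81318911 to 81360812, minus strand) had 59.3 CPM (224 UMIs) in CT against 107 CPM (915 UMIs) in Opa1 cKO and a log2 ratio of 0.86 (0.65 to 1.08). Slc25a42 (chromosome 8, 70184340 to 70212305, minus strand) had 28.3 CPM (107 UMIs) in CT against 15.2 CPM (129 UMIs) in Opa1 cKO and a ratio of −0.90 (−1.28 to −0.52). These carriers of coenzyme A, in different organelles, also lay at opposite ends of the family.

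Further nucleotide and cofactor carriers stayed within 1.5-fold. Slc25a16, linked to coenzyme A in mitochondria, had 34.9 and 44.6 CPM, a ratio of 0.35 (0.06 to 0.65). Slc25a51, the NAD+ carrier, had a ratio of 0.29 (−0.02 to 0.61). Slc25a26, which brings in S-adenosylmethionine, had 152 UMIs in all and a ratio of 0.41 (−0.13 to 0.98). Slc25a32, linked to folate and FAD, had 103 UMIs in all and a ratio of 0.55 (−0.13 to 1.27).

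The upstream sequence of the members at both ends of the range is shown so that it can be read beside their values. The windows come from the promoter table of RefSeq on GRCm38.p6, trimmed to bases upstream of the gene as annotated in the files' build, and are printed 5′ to 3′ on the gene's strand with CG dinucleotides in capitals. They span chr4:149774278-149774517 for Slc25a33, chr15:81360813-81361015 for Slc25a17, chr9:97111158-97111291 for Slc25a36 and chr8:70212306-70212531 for Slc25a42, all on the minus strand.
Slc25a33: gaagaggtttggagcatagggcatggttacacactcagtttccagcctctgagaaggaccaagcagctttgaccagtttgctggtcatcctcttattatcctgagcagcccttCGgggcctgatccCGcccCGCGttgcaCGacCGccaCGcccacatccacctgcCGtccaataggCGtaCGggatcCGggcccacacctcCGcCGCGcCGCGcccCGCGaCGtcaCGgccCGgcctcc
Slc25a17: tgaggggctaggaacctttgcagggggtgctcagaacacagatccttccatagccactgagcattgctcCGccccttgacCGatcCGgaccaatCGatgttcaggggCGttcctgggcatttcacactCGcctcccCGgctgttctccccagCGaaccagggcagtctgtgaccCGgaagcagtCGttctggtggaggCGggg
Slc25a36: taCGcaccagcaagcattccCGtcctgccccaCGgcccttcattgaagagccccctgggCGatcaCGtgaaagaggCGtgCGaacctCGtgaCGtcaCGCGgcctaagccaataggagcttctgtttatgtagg
Slc25a42: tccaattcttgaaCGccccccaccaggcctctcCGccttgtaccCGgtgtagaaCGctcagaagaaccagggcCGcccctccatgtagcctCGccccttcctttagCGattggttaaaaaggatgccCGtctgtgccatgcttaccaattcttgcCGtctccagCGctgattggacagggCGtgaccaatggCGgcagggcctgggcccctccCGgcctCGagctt
CG dinucleotides per 100 bases were 8.75 for Slc25a33, 5.42 for Slc25a17, 8.21 for Slc25a36 and 6.19 for Slc25a42. The median was 4.80 over the 250 upstream bases of the 43 windows of the 33 members found in the table and 2.40 over all 32851 windows. The higher and the lower pair did not separate by this measure.

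Motifs were searched on both strands of the full windows, from 250 bases before to 50 after each start. The relaxed form of the composite element bound by ATF4, TTNCNTCA, was present for 2 of the 33 members (Slc25a14 and Slc25a23), or 6.06%, and for 18.6% of all 27025 genes. The strict form TTGCATCA, which the relaxed one includes, was in no member's window and in 0.895% of all windows. The site of the mitochondrial regulator NRF1 was found for 1 of the 33 members, Slc25a3, or 3.03%, and for 5.19% of all genes. Slc25a3 is shown by the 30 bases at chr10:91124163-91124192 on the minus strand, with the motif in capitals.
Slc25a3: gctttggatctGCGCCTGCGCagtaggaat
None of these motifs was in a window of Slc25a33, Slc25a17, Slc25a36 or Slc25a42.

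The carriers of carboxylic acids and acylcarnitine lay within 1.5-fold in all 5 counted cases, from −0.51 to 0.28. Slc25a11, the 2-oxoglutarate/malate carrier of the malate-aspartate shuttle, had 110.4 CPM in CT against 134 CPM in Opa1 cKO and a log2 ratio of 0.28 (0.11 to 0.44). Slc25a12, the aspartate/glutamate carrier of the same shuttle, had 25.9 and 25.4 CPM, a ratio of −0.03 (−0.38 to 0.33), and its paralogue Slc25a13 had 8 UMIs in the class. Slc25a20, which brings in acylcarnitines for fatty acid oxidation, had 42.3 and 48.8 CPM, a ratio of 0.20 (−0.06 to 0.48). Slc25a1, the citrate carrier that exports acetyl units for lipid synthesis, had 27.5 and 19.3 CPM, a ratio of −0.51 (−0.88 to −0.15). Slc25a10, the dicarboxylate carrier, had 35 and 57 UMIs and a ratio of −0.47 (−1.10 to 0.18).

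Among the amino acid carriers, Slc25a18 had by far the highest level. It encodes a glutamate carrier and was the fourth most abundant member, with 504 CPM in CT against 439 CPM in Opa1 cKO and a log2 ratio of −0.20 (−0.28 to −0.12). The second glutamate carrier, Slc25a22, had 9.26 and 9.28 CPM and a ratio of 0.00 (−0.59 to 0.62). Slc25a29, a carrier of basic amino acids, was the 1 member of the group past 1.5-fold, with 23.3 CPM in CT against 35.9 CPM in Opa1 cKO and a ratio of 0.63 (0.28 to 0.99). Slc25a38, which brings glycine in for haem synthesis, had 25.7 and 36.3 CPM, a ratio of 0.50 (0.17 to 0.84). The branched-chain amino acid carrier Slc25a44 had a ratio of 0.09 (−0.26 to 0.45), and the ornithine carrier Slc25a15 one of −0.25 (−0.83 to 0.35).

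The glutathione and iron carriers each form a pair of paralogues. Slc25a39, a glutathione carrier, had 27.5 CPM in CT against 43.7 CPM in Opa1 cKO and a log2 ratio of 0.67 (0.35 to 0.99). Its paralogue Slc25a40 had 17.2 and 13.4 CPM, a ratio of −0.36 (−0.81 to 0.10), and Slc25a39 gave 61.5% (53.8 to 68.9) of the pair's UMIs in CT and 76.5% (72.5 to 80.2) in Opa1 cKO. Slc25a37, or mitoferrin 1, had only 21 and 76 UMIs, with a ratio of 0.68 (−0.03 to 1.46), and Slc25a28, or mitoferrin 2, had a ratio of −0.30 (−0.72 to 0.12). Slc25a37 gave 22.1% (14.2 to 31.8) of the mitoferrin pair's UMIs in CT and 36.0% (29.5 to 42.9) in Opa1 cKO. These counting intervals overlapped, which does not show that the shares were equal.

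Of the carriers related to uncoupling proteins, Slc25a14 had 18.3 CPM in CT against 27.7 CPM in Opa1 cKO and a log2 ratio of 0.60 (0.21 to 1.01). Slc25a27 had 14.8 and 19.9 CPM, a ratio of 0.42 (−0.02 to 0.88). Slc25a46 sits in the outer membrane, where it takes part in mitochondrial fusion and fission, and was at 77.0 and 82.9 CPM, a ratio of 0.11 (−0.09 to 0.31). The 4 counted members given no role here had ratios of 0.22 for Slc25a34, 0.10 for Slc25a53, −0.44 for Slc25a35 and −0.50 for Slc25a47. Slc25a47 (chromosome 12, 108836046 to 108856815, plus strand) begins next to the start of Slc25a29 (chromosome 12, 108825873 to 108835883, minus strand), and the ratios of these neighbours were −0.50 (−1.12 to 0.14) and 0.63 (0.28 to 0.99).

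The libraries differed greatly in the mRNA that mitochondria make themselves. The share of a cell's UMIs from the 13 mitochondrially encoded mRNAs (the mt- share) had a median of 5.24% among CT and 0.672% among Opa1 cKO cells of the NSC pool-like class. It was under 1% in 2 CT cells (0.145%) and in 1581 Opa1 cKO cells, or 61.0% (59.1 to 62.9, exact binomial). Opa1 cKO cells under 1% and of 1% or more come from the same library and had median depths of 2962 and 2961.5 UMIs. They were therefore also compared with each other.

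Within the Opa1 cKO library, carriers summed to 5398 CPM in cells under 1% and 4751 CPM in cells of 1% or more, a log2 ratio of 0.18 (0.16 to 0.21), and without Slc25a3, Slc25a4 and Slc25a5 the ratio was 0.34 (0.29 to 0.39). Of 36 members with enough UMIs, 8 were higher and 1 lower in cells under 1%, and of all 9375 genes 14.1% were higher and 3.86% lower. The members had a median ratio of 0.33, all genes one of 0.18, and genes with at least 300 UMIs one of 0.23. Relative to that last shift the summed ratio turned to −0.042 and the counts to 3 higher (Slc25a33, Slc25a29 and Slc25a38) and 2 lower (Slc25a23 and Slc25a10), against 5.22% and 9.75% of all genes. With mitochondrial mRNAs left out of the total, the counts were 5 and 1, against 10.7% and 5.06% of all genes.

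Slc25a33 had 180.5 CPM in Opa1 cKO cells of 1% or more and 324 CPM in those under 1%, a log2 ratio of 0.84 (0.71 to 0.98). Slc25a29 had 23.3 and 43.8 CPM, a ratio of 0.91 (0.53 to 1.30), and Slc25a38 had 24.6 and 43.6 CPM, a ratio of 0.83 (0.45 to 1.21). These 3 members were past 1.5-fold higher in cells under 1% under each of the 3 scalings. Slc25a17 had 79.2 and 125 CPM, a ratio of 0.66 (0.45 to 0.87), and Slc25a16 had 34.1 and 51.2 CPM, a ratio of 0.59 (0.26 to 0.92). The other members higher in cells under 1% were Slc25a22, Slc25a32 and Slc25a34, with 79, 79 and 105 UMIs. Slc25a10 was lower, with 32 UMIs in cells of 1% or more and 25 in those under 1% and a ratio of −1.05 (−1.86 to −0.25). Slc25a4, by contrast, had 1462 and 1495 CPM, a ratio of 0.03 (−0.02 to 0.08), and Slc25a36 had 38.4 and 32.9 CPM, a ratio of −0.22 (−0.56 to 0.12).

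Opa1 cKO cells of 1% or more were also set against CT cells of 1% or more, to compare genotypes at a more alike mt- share. The shares still differed, as 242 of these 1010 Opa1 cKO cells and 107 of the 1376 CT cells lay between 1% and 3%. Of 34 members, 2 were higher (Slc25a27 and Slc25a5) and 4 lower (Slc25a42, Slc25a36, Slc25a47 and Slc25a40), against 3.2% and 10.4% of 9062 genes. Relative to the median of genes with at least 300 UMIs, or without mitochondrial mRNAs in the total, the counts were 1 and 4, since Slc25a5 then fell short of 1.5-fold, while 2.74% and 11.8% of all genes passed it under the first scaling and 2.99% and 11.2% under the second. The summed carriers had 4014 CPM in CT against 4751 CPM in Opa1 cKO and a log2 ratio of 0.24 (0.21 to 0.28). That direction rests on Slc25a3, Slc25a4 and Slc25a5, as the other 39 members summed to 1579 and 1472 CPM, a log2 ratio of −0.10 (−0.16 to −0.05). The median over members was −0.09 and that over all genes −0.06. Opa1 cKO cells under 1% set against the same CT cells gave 9 members higher and 5 lower, against 19.7% and 13.7% of 9610 genes, and relative to the median of genes with at least 300 UMIs 5 were higher and 8 lower, against 10% and 23.7% of all genes. Without mitochondrial mRNAs in the total, that comparison had 9 higher and 6 lower, against 15.8% and 17.1% of all genes. Both comparisons share their CT cells, so their values are given side by side.

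Slc25a33 had a log2 ratio over CT of 0.37 (0.19 to 0.54) in Opa1 cKO cells of 1% or more and of 1.21 (1.07 to 1.35) in those under 1%. Slc25a17 had ratios of 0.42 (0.15 to 0.68) and 1.08 (0.85 to 1.30). Over alternative processings, among them other limits of the mt- share, the first ratio ranged from 0.12 to 0.72 for Slc25a33. For Slc25a17 it ranged from 0.25 to 0.67. For Slc25a29 the ratios were 0.00 (−0.46 to 0.46) and 0.91 (0.55 to 1.28), and for Slc25a38 they were −0.07 (−0.51 to 0.38) and 0.76 (0.41 to 1.12). In these 4 carriers the distance from CT was greater in the cells poor in mitochondrial mRNA. Since the CT cells are the same, this restates their difference within the Opa1 cKO library and is no further observation. Slc25a4 had ratios of 0.39 (0.33 to 0.45) and 0.42 (0.36 to 0.47), and Slc25a5 of 0.60 (0.52 to 0.67) and 0.80 (0.73 to 0.86), so that both ADP/ATP carriers were at a higher level on either side of 1%. Slc25a36 had ratios of −0.77 (−1.09 to −0.45) and −0.99 (−1.28 to −0.70), and Slc25a42 of −1.21 (−1.77 to −0.67) and −0.74 (−1.17 to −0.32). These last carriers were lower than in CT past 1.5-fold in both groups of Opa1 cKO cells, each group taken as a whole.

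**Figure D2:**
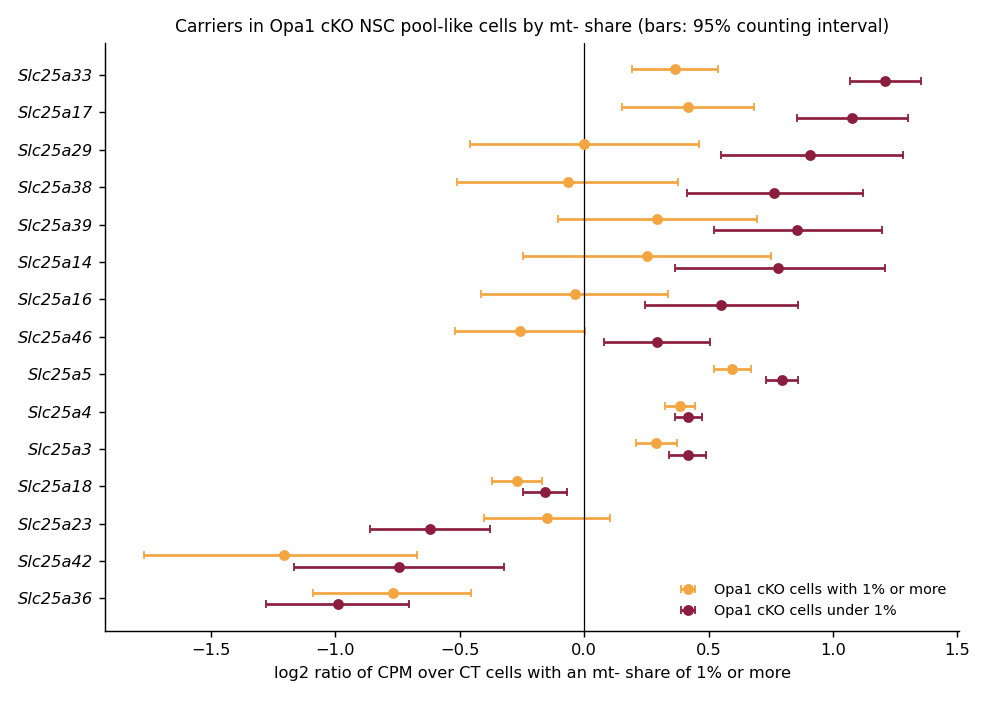
Log2 ratio of CPM over CT NSC pool-like cells with an mt- share of 1% or more, for 15 carriers in Opa1 cKO cells of 1% or more (orange) and under 1% (dark red), with 95% counting intervals. Slc25a33 lies at 0.37 and 1.21, Slc25a4 at 0.39 and 0.42, and Slc25a36 at −0.77 and −0.99.

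Finer bins of the mt- share showed where these levels differed. Slc25a33 in Opa1 cKO cells had 363 CPM below 0.25%, 313 CPM from 0.25% to 0.5%, 318 CPM from 0.5% to 1%, 301 CPM from 1% to 2%, 249 CPM from 2% to 3%, 163 CPM from 3% to 5% and 143 CPM above 5%. In CT cells it had 154 CPM from 2% to 3%, 159 CPM from 3% to 5% and 127 CPM above 5%. The intervals of the libraries overlapped in each of these bins, with the Opa1 cKO level the higher one each time. From 2% to 3% they met only at their ends, at 107 to 214 CPM in CT and 191 to 317 CPM in Opa1 cKO. Such an overlap does not show that the levels were equal. Slc25a36 in Opa1 cKO cells stayed between 28.2 and 39.3 CPM in all 7 bins, below the 58.9 to 92.2 CPM of the 3 CT bins. Its intervals overlapped at their ends from 2% to 3%, at 57.1 to 141 CPM in CT and 13.4 to 61.2 CPM in Opa1 cKO. They also did so above 5%, at 49.2 to 70.0 CPM and 29.8 to 50.5 CPM, but not from 3% to 5%. The level of Slc25a42 did not stay below the CT bins. In Opa1 cKO cells below 0.25% it had 30.2 CPM (20.4 to 43.2) on 30 UMIs, within the 27.4 to 39.5 CPM of the CT bins. The other Opa1 cKO bins had 7.77 to 16.8 CPM of Slc25a42. Slc25a5 in Opa1 cKO cells was between 1014 and 1327 CPM in all bins, above the 641 to 822 CPM of the CT bins.

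**Figure D3:**
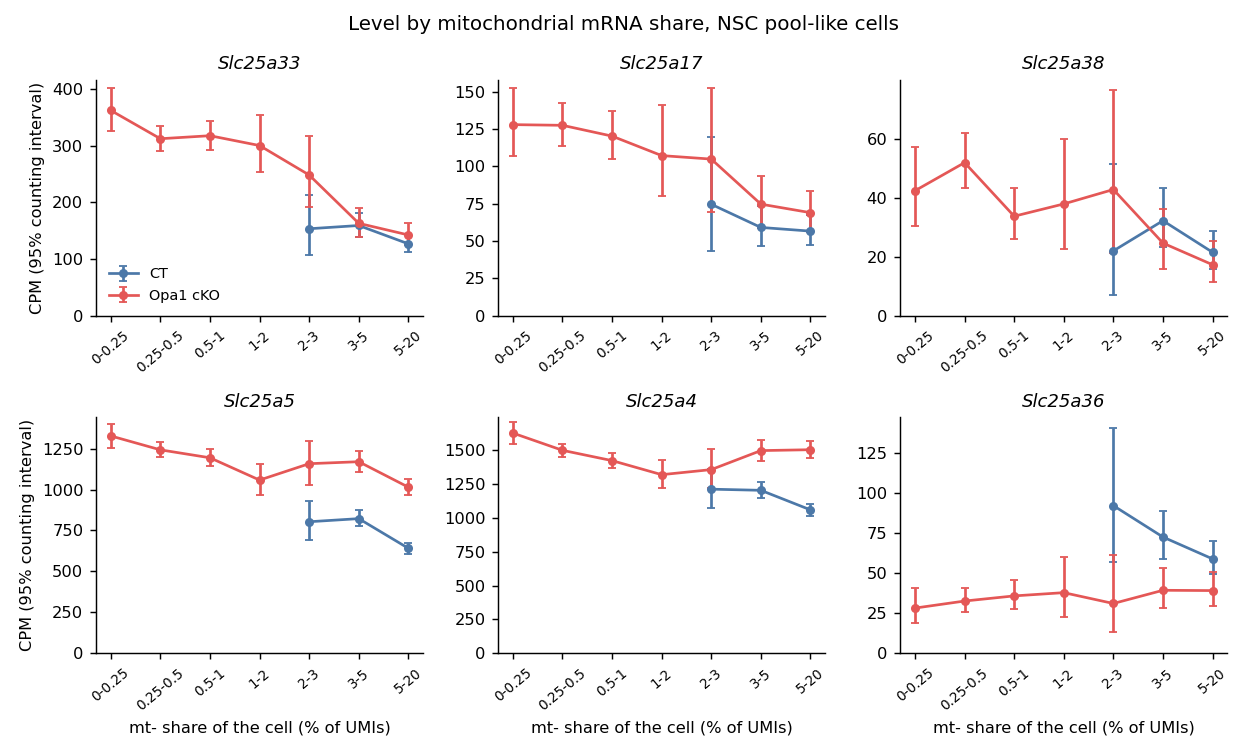
Level (CPM, linear axis from 0) of 6 carriers in NSC pool-like cells by mt- share of the cell, for CT (blue) and Opa1 cKO (red), with 95% counting intervals, for bins with at least 20 cells. Slc25a33 in Opa1 cKO cells goes from 363 CPM in the lowest bin to 143 CPM in the highest. The Opa1 cKO points of Slc25a36 lie below the CT points and those of Slc25a5 and Slc25a4 above them.

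Genes of the integrated stress response (ISR), a translational stress programme led by ATF4, differed along the same bins. Summed over Atf4, Chac1, Slc7a11, Slc3a2, Ddit3 and Ddit4, they had 5262 CPM below 0.25% and 1134 CPM above 5% in Opa1 cKO cells, and 1055 CPM above 5% in CT cells. The part of these genes, or of the mt- share, in the carrier levels was not tested. In oligodendrocyte-like cells the mt- share of the summed UMIs was 4.96% for CT against 4.78% for Opa1 cKO, and the ISR genes had 632 and 732 CPM. There Slc25a5 had 319 CPM in CT against 578 CPM in Opa1 cKO and a log2 ratio of 0.86 (0.51 to 1.22). The 10 NSC pool markers, all detected, also differed in this class. They summed to 10300 CPM for CT against 14015 CPM for Opa1 cKO, and their part in that ratio was not tested. Slc25a33 had 6 and 23 UMIs there, below the depth used for a ratio.

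In the other classes fewer cells limited the values to the abundant members. Progenitor and neuron-like cells, 139 in CT and 171 in Opa1 cKO, had 12 members with enough UMIs, of which 3 were higher and 2 lower, against 13.1% and 15.3% of 3917 genes. Slc25a33 was higher, with 31.1 and 85.5 CPM and a log2 ratio of 1.46 (0.58 to 2.43), and Slc25a36 lower, with 104 and 57.0 CPM and a ratio of −0.87 (−1.56 to −0.21). Slc25a33 gave 23.0% (13.2 to 35.5) of the UMIs of the pyrimidine nucleotide pair in CT and 60% (48.8 to 70.5) in Opa1 cKO, a difference in the direction seen in NSC pool-like cells. Slc25a4 had 607 and 945 CPM, a ratio of 0.64 (0.43 to 0.85). Slc25a23 had 30 and 26 UMIs and a ratio of −0.61 (−1.43 to 0.19). Slc25a18 had 14 and 37 UMIs and a ratio of 1.00 (0.07 to 2.0). The 10 NSC pool markers, all detected, summed to 5075 CPM in CT cells of this class against 8131 CPM in Opa1 cKO ones, and their part in these ratios was not tested.

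Mural-like cells, 94 and 168, had 5 members with enough UMIs, of which Slc25a33 and Slc25a5 were higher, against 18.1% of 2046 genes. Slc25a33 had 79.6 CPM in CT against 232 CPM in Opa1 cKO and a ratio of 1.55 (0.69 to 2.52), and Slc25a5 had 557 and 947 CPM, a ratio of 0.77 (0.43 to 1.12). In this class the NSC pool markers, all detected, summed to 13438 and 15397 CPM and the ISR genes to 624 and 1612 CPM, and their part was not tested. In ependymal-like cells, 39 and 244, Slc25a5 had 374 and 692 CPM, a ratio of 0.89 (0.43 to 1.38). Slc25a14 and Slc25a46 were also past 1.5-fold there, on 2 and 3 CT UMIs and with intervals that included 0, so that 3 of 10 members were higher, against 20.7% of 3697 genes. In oligodendrocyte-like cells, 74 and 101, Slc25a5 and Slc25a46 were higher and Slc25a27 and Slc25a17 lower of 8 members, against 10.9% and 10.6% of 2416 genes. Slc25a27, an uncoupling protein-like carrier of the nervous system, had 118 and 68.9 CPM, a ratio of −0.78 (−1.54 to −0.03), while the intervals of Slc25a46 and Slc25a17 included 0. In endothelial-like cells, 55 and 89, none of 5 members passed 1.5-fold, where 10% of 2466 genes were higher and 11.7% lower, and Slc25a5 had 502 and 699.6 CPM, a ratio of 0.48 (0.16 to 0.80). Globin genes led that cluster beside Cldn5. Activated NSC-like cells had only 11 CT cells with 109 carrier UMIs, too few for values of single members, and 3766 and 3928 CPM of carriers in sum.

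**Figure D4:**
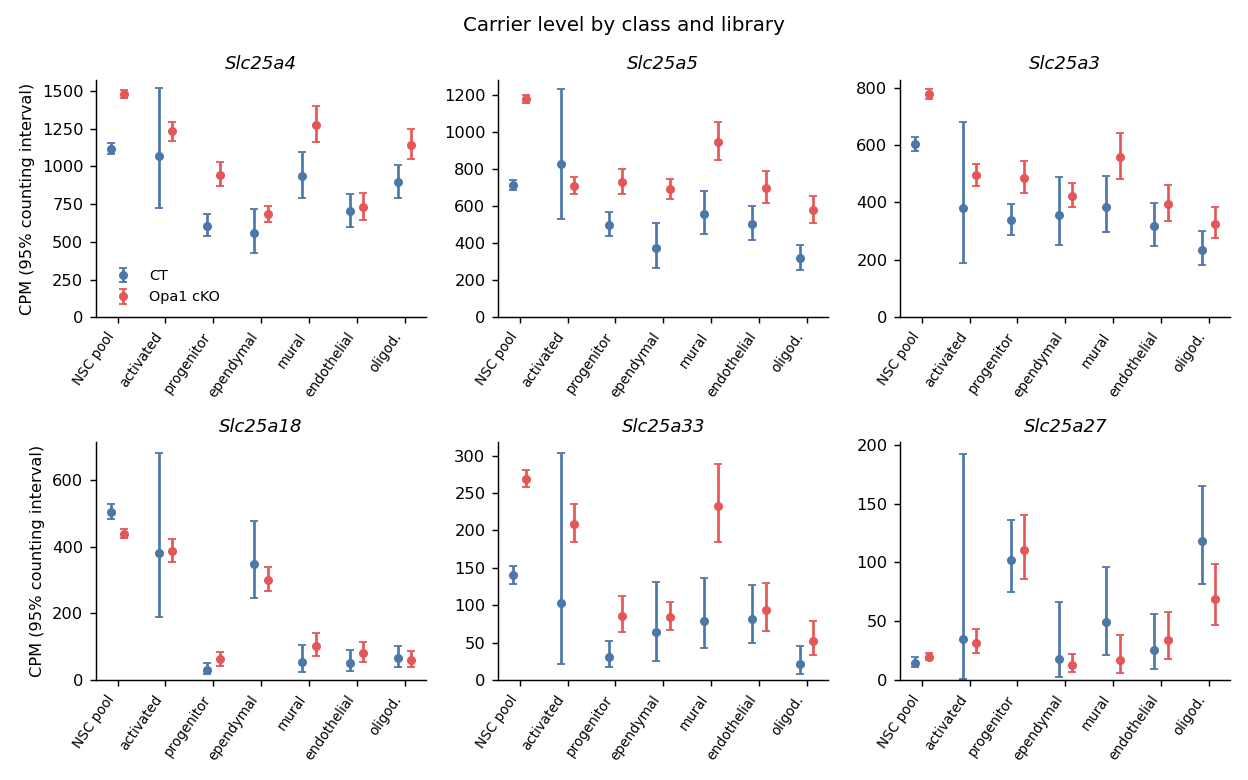
Level (CPM, linear axis from 0) of 6 carriers in each class for CT (blue) and Opa1 cKO (red), with 95% counting intervals. Slc25a18 is at 301 to 504 CPM in NSC pool-like, activated NSC-like and ependymal-like cells and at 31.1 to 102 CPM in the others, and Slc25a27 is highest in progenitor and neuron-like and oligodendrocyte-like cells.

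The members also differed in where they were found. Slc25a18 had 504 CPM in CT NSC pool-like, 347 CPM in ependymal-like and 66.0 CPM in oligodendrocyte-like cells, and its lowest CT value was 31.1 CPM, for progenitor and neuron-like cells. Slc25a27 showed another order, with 14.8 CPM in CT NSC pool-like, 102 CPM in progenitor and neuron-like and 118 CPM in oligodendrocyte-like cells. Slc25a33 had 140.3 CPM in CT NSC pool-like cells and between 20.8 and 104 CPM in the other CT classes. Classes were formed from expression in the same cells, so these levels are a description.

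The share of cells with at least 1 UMI was read after each cell had been thinned to 1500 UMIs, since depth sets this share. This left out 94 CT and 198 Opa1 cKO cells with fewer UMIs. Slc25a33 was found in 18.1% (16.1 to 20.4) of CT and 31.0% (29.2 to 32.9) of Opa1 cKO NSC pool-like cells, and in 29.2% and 50.6% without thinning. In Opa1 cKO cells under 1% the thinned share was 35.9% (33.4 to 38.4), and in those of 1% or more it was 23.5% (20.8 to 26.4). In oligodendrocyte-like cells it was 4.05% (0.84 to 11.4) for CT, or 3 of 74 cells, and 5.94% (2.21 to 12.5) for Opa1 cKO, or 6 of 101. How much of this share was free RNA and how much the cells' own was not tested. Median depth before thinning was 2494 and 2962 UMIs in NSC pool-like cells of CT and Opa1 cKO, and 3767.5 and 3914 UMIs in oligodendrocyte-like ones. Slc25a36 was found in 7.87% (6.45 to 9.48) of CT and 5.56% (4.67 to 6.55) of Opa1 cKO NSC pool-like cells, 15.1% and 10.7% without thinning. In oligodendrocyte-like cells it was found in 2.70% and 1.98%, which is 2 cells in each library. The thinned shares followed the order of the CPM values in NSC pool-like cells for both genes.

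Other genes of mitochondrial transport were read in NSC pool-like cells on the same scale. Their lists were chosen with earlier results of these data known, so the counts are a description. Of 16 genes for channels and carriers outside the family, 5 were higher and 0 lower in Opa1 cKO, where 12.9% of all genes were higher and 11.6% lower. Vdac3 and Vdac2 encode pores of the outer membrane and had log2 ratios of 1.09 (0.97 to 1.21) and 0.62 (0.52 to 0.72), while Vdac1 had one of 0.30 (0.20 to 0.41). Mpc1, a subunit of the mitochondrial pyruvate carrier, had 695 and 1114 CPM and a ratio of 0.68 (0.62 to 0.74), but its partner Mpc2 had 338 and 354 CPM and a ratio of 0.07 (−0.03 to 0.16). Micu2, which gates calcium uptake, had a ratio of 1.04 (0.48 to 1.64), and Mcu, the pore it gates, had one of −0.43 (−0.75 to −0.11).

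Of the 9 genes of the route that brings carriers to the inner membrane, 1 was higher, Timm8a1, a small chaperone of the space between the membranes, and 0 lower, where 12.9% of all genes were higher, so that the count was near that of genes at large. Timm8a1 had 52.9 CPM in CT against 117 CPM in Opa1 cKO and a log2 ratio of 1.15 (0.93 to 1.37). Timm22, the insertion pore, had a ratio of 0.12 (−0.16 to 0.39). None of the 3 counted family members under other names, Ucp3, Mtch1 and Mtch2, passed 1.5-fold.

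Enzymes that use or make what carriers move were also listed with earlier results known, so their counts are a description as well. Of 22 counted ones, 5 were higher and 2 lower, against 12.9% and 11.6% of all genes. The other 15 were within 1.5-fold, and among them were Got1, Got2, Mdh1 and Mdh2 of the malate-aspartate shuttle, at log2 ratios of 0.32, 0.34, 0.27 and 0.49, and Oat, which makes glutamate from ornithine, at 0.51. Mthfd2, Aldh1l2 and Shmt2, of mitochondrial folate metabolism, had ratios of 3.59 (3.01 to 4.23), 3.31 (1.70 to 5.62) and 0.87 (0.55 to 1.20), beside 0.55 for Slc25a32. Gclm and Gss, of glutathione synthesis, had ratios of 0.65 (0.50 to 0.79) and 0.59 (0.04 to 1.18), beside 0.67 for the glutathione carrier Slc25a39. Slc25a40, the paralogue of Slc25a39, went the other way, with ratios from −0.50 to −0.11 over alternative processings. Acly, which splits exported citrate, was lower at −0.93 (−1.17 to −0.69), beside −0.51 for the citrate carrier Slc25a1. Mthfd2, Aldh1l2, Shmt2 and Gclm were also higher in Opa1 cKO cells under 1% than in those of 1% or more, with ratios of 1.76, 2.94, 0.97 and 0.68, and so was Timm8a1, at 0.99.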

How the data were processed

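The authors deposited filtered gene-by-cell matrices of raw UMI counts from the 10x Genomics 3′ v2 assay, 1 per library, aligned to mm10; per the labels Cell Ranger 2.1.1 was used, whereas the matrix headers carry version 3.1.0. From these counts, barcodes were kept if they had over 600 but below 7500 genes, under 20% mitochondrial UMIs and at least 1 YFP UMI. Cells of both libraries were clustered with Seurat 5.3.0 and sctransform 0.4.2 (8 dimensions, resolution 0.2) in R 4.3.3. Genes of a cluster were ranked by fold over the median CPM of the other clusters (10 CPM added). A name was eligible if at least 3 of its markers, and a set share of its list, were over 2-fold. Of the eligible names, the cluster took the one with most markers among its top 50 genes. Ties went by the top 10 genes and then by the share of markers over 2-fold. This form of the rule was chosen after the clusters were seen. The fold over all other cells had left the second NSC pool-like cluster unnamed. Scrublet (scanpy 1.11.5) marked 0.0900% of 5554 kept cells and was not relied on, so doublets were not removed.

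UMIs were summed over cells of a library and class and divided by all UMIs there (CPM), with exact Poisson intervals; a ratio has the exact Clopper-Pearson interval of the split of UMIs (scipy 1.17.1, Python 3.11.15). Intervals were checked only on counts simulated from the Poisson model that they assume, without variation between cells. They cover counting error at 95%, and the UMIs of the gene or sum in the cells compared set their width. The libraries held 10799936 and 18662032 UMIs in all. With 1 library per genotype no test was made. Values are given for members with at least 100 UMIs over both libraries in NSC pool-like cells, and for others by counts, range or a place in a call; Slc25a10, Slc25a37 and Slc25a47, below that minimum, were given single values after these were seen. Single values of 4 genes are not reported here. Members and lists were chosen with earlier results of these data known. Alternatives covered cells kept, clustering, denominator, weighting, depth, minimum UMIs, fold and mt- share limit.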

Additional observations from a re-analysis of the deposited data

Results flagged for a closer look

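Slc25a18 differed in opposite directions in 2 classes. On 14 CT and 37 Opa1 cKO UMIs, progenitor and neuron-like cells had a log2 ratio of Opa1 cKO over CT of 1.00 (0.07 to 2.0), against −0.20 (−0.28 to −0.12) for the NSC pool-like class. In CT its level was 504 CPM in NSC pool-like against 31.1 CPM in progenitor and neuron-like cells, where the 10 NSC pool markers, all detected, summed to 5075 CPM for CT against 8131 CPM for Opa1 cKO; their part in the ratio was not tested. With 1 library per genotype the difference between the classes was not tested.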

How the results depend on the processing

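No paired analysis was possible because each genotype has 1 library. Here A is Opa1 cKO against CT in NSC pool-like cells, B is cells under 1% against those of 1% or more in Opa1 cKO, and C is A at an mt- share of 1% or more. Over the alternatives of the 3 comparisons and the other classes, 121 of 165 values stayed within 1.5 times or the counting interval, 42 moved and 2 reversed. Of 1386 values of 33 single genes, 40 moved and 0 reversed, where only a gene past 1.5-fold in the main setting could be labelled reversed. Genes within 1.5-fold did change sign. In A, Slc25a1 ranged from −0.66 to 0.03 and Slc25a32 from −0.01 to 0.56. Relative to the median of genes with at least 300 UMIs, the summed log2 ratio of A was 0.22 (2 members higher, 6 lower), that of B reversed to −0.042 (3 higher, 2 lower), and C had 1 higher. Without mitochondrial mRNAs in the total, the sum was 0.30 in A and 0.12 in B, with 5 members higher in B and 1 in C. Without Slc25a3, Slc25a4 and Slc25a5 the sum was 0.12 in A, 0.34 in B and reversed to −0.10 in C. With each cell thinned to 1500 UMIs, A had a sum of 0.32 and 5 lower, B 0 lower, and C a sum of 0.21, 0 higher and 2 lower. Clustering without mitochondrial, ISR and Slc25a genes gave sums of 0.33 in A and 0.21 in C, with 1 higher in C. C also had 1 higher without the YFP filter, with log-normalization (2 lower), from the lineage clustering, with cells weighted alike (4 lower in A) and without the 5% of cells with the highest doublet score. With every barcode over 200 genes, A had 4 higher and C 2 lower. A minimum of 20 UMIs gave 3 lower in B and 4 higher in C, and one of 100 UMIs 0 lower in B. At 2-fold, A had 0 higher and 0 lower, B 0 higher and 1 lower, and C 0 higher and 1 lower. The share of all genes was read only in the main setting, relative to the median and without mitochondrial mRNAs. The counts under the other alternatives have no such share beside them, so they are not read as a result about carriers. At an mt- share limit of 0.5%, B had 5 higher and C a sum of 0.29 and 4 higher. Without the YFP filter the cluster named activated NSC-like gave a summed ratio of 0.42. Its leading genes were then C1qb, C1qc and Ctss, and microglia markers were among its top genes. Mycn, Ecrg4 and Slc38a1 led the class of that name in the main setting. The value of 0.42 thus belongs to a class of different make-up. The cause of these shifts was not tested. In A, Slc25a33 ranged from 0.80 to 0.96, Slc25a17 from 0.64 to 0.87, Slc25a36 from −1.04 to −0.61, Slc25a42 from −1.09 to −0.58 and Slc25a5 from 0.58 to 0.75. The limit of 3%, the doublet score, the removal of shared barcodes and the sums without Slc25a3, Slc25a4 and Slc25a5 were chosen after seeing the data. The planned removal of Scrublet-called cells was not run, since the caller marked 0.0900% of cells.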
